A study of Homo sapiens with 12 samples.

Results

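The genes described here are 36 genes of cholesterol and fatty acid synthesis that are known as targets or parts of the sterol regulatory element-binding protein (SREBP) system, out of 16705 genes in the expression table. They were taken by symbol from a list drawn up with earlier results of these data known, and all 36 were found. The list has a sterol branch of 24 genes, from HMGCS1 to TMEM97, and a fatty acid branch of 12 genes, from ACLY to LPIN1. RNA was sequenced from human liver spheroid co-cultures of 2 cell lines: C3A, a hepatocyte-like subclone of HepG2 liver tumour cells, and LX-2, which stands for the collagen-producing stellate cells of the liver. The 4 groups of 3 libraries were untreated spheroids and spheroids exposed to 1% total parenteral nutrition (TPN), each harvested after 24 h or 144 h. TPN is the infused diet of patients who cannot be fed by the gut, here a commercial bag with glucose, amino acids and a lipid emulsion, to which vitamins and trace elements were added. All groups shared the same serum-containing medium, many spheroids were pooled for each library, and each cell type was represented by 1 tumour-derived or immortalized line. The comparisons ask how exposure for a short and a long time altered the transcriptome of these liver cells.

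Levels are given as FPKM, the number of fragments of a gene scaled by transcript length and by the mapped fragments of the library, as the authors calculated it. The sums per library lay between 561657 and 583722 FPKM, and between 10936 and 11074 genes reached 1 FPKM. The steps between low values in 39 short genes gave a rough estimate of 1.27e+07 fragments per library (interquartile range over genes 1.05e+07 to 1.39e+07), on the low side because full transcript lengths were used. At that depth 1 fragment on a transcript of 2000 bases was worth 0.0394 FPKM, so that all members except INSIG1 were measured far above single fragments. The median coefficient of variation of the members within a group was between 2.54% and 3.44%, and no library stood apart from its group. Of 10 hepatocyte markers all were tested, with a summed level of 11579 to 15839 FPKM over the 12 libraries. Of 10 stellate cell markers 9 were tested, and DES, a muscle-type intermediate filament, was between 0 and 0.09 FPKM in every library.

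SREBPs are membrane-bound transcription factors that are held in the endoplasmic reticulum by SCAP and the INSIG proteins while sterols are plentiful. When sterols run low, SCAP carries SREBP to the Golgi, proteases release its active part, and this part switches on genes of cholesterol and fatty acid synthesis. SREBF2 encodes the protein known mainly for the sterol genes and SREBF1 the one known mainly for the fatty acid genes, and in liver both programmes also respond to diet, insulin and fatty acids.

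SREBPs are known to act on promoters together with NF-Y, which binds CCAAT, and Sp1, which binds GC boxes, and these letters were searched in RefSeq promoter windows of 300 bases (GRCh38.p14, from 250 bases before to 50 after the gene's start, both strands). A window was given for 33 of the 36 members, and FASN, FDFT1 and SQLE had no entry. CCAAT was found in 16 of 22 sterol branch windows (72.7%) and in 5 of 11 fatty acid branch windows (45.5%), against 36.9% of the 9494 promoters of tested genes and 35.7% of all 27305 promoters. A GC box, GGGCGG, was found in 95.5% of the sterol and 72.7% of the fatty acid windows, against 70.7% of tested genes and 44.6% of all promoters. An E-box, CACGTG, was found in 18.2% of the sterol and 9.09% of the fatty acid windows, against 10.3% of tested genes and 7.43% of all promoters. The sterol regulatory element in the form TCACNCCAC was found in SREBF2 alone among the members, at 133 bases before its start, and in 1.13% of tested genes and 1.15% of all promoters. Matches of different motifs did not overlap in the members' windows. Matches of the same motif did in 4 members, with overlapping GC boxes in ACACA, INSIG1 and SREBF2 and a CCAAT box that shared bases with an ATTGG in NSDHL.

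The stretches below come from RefSeq (GRCh38.p14) and are shown because they belong to the 4 sterol genes with the largest changes under TPN, to the gene for SREBP2, and to MSMO1, a sterol gene with several CCAAT boxes that did not pass the test under TPN. Each is written 5′ to 3′ in the direction of the gene, with CCAAT or its complement ATTGG and the sterol regulatory element in capitals. They end before the first annotated base of the gene. The stretch of TM7SF2 is limited to the site itself because an exon of the neighbouring gene VPS51 covers it in GENCODE v44. They lie at chr5:43313513-43313662 (HMGCS1, minus strand), chr21:46228825-46229024 (LSS, minus strand), chr11:65111785-65111814 (TM7SF2, plus strand), chr17:28318950-28319040 (TMEM97, plus strand), chr22:41832855-41833104 (SREBF2, plus strand) and chr4:165327419-165327666 (MSMO1, plus strand).
HMGCS1: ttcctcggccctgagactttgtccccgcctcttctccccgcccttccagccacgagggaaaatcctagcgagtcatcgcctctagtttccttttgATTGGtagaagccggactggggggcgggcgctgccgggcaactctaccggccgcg
LSS: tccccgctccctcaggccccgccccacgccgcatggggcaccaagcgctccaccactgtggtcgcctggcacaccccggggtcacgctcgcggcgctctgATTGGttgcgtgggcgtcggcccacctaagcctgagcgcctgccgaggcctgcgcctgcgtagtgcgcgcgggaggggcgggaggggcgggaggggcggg
TM7SF2: cccccgagcgccgATTGGctggtgtgctgg
TMEM97: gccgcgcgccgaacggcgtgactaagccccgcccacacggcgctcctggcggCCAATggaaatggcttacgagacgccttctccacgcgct
SREBF2: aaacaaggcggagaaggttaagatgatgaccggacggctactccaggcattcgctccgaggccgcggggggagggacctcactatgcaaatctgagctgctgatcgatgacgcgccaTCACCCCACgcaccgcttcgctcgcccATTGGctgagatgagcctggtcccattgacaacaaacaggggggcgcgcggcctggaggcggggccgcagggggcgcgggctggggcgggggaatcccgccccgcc
MSMO1: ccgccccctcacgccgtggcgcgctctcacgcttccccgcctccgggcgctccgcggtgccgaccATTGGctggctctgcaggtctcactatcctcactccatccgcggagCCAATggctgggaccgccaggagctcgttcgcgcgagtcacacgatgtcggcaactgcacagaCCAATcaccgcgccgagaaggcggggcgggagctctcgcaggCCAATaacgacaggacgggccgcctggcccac
Counted over the whole windows, HMGCS1 held 2 CCAAT boxes, LSS 1, TM7SF2 1, TMEM97 3, SREBF2 1 and MSMO1 4. The box was thus present in the genes that fell most and in MSMO1.

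Exposure to 1% TPN for 144 h lowered most genes of both branches. Of the 23 sterol genes tested, 18 fell and 1 rose, and of the 12 fatty acid genes, 9 fell and 2 rose, at a limma adjusted p below 0.05. Over all 11713 genes tested, 52.5% were called in this comparison, 28.3% lower and 24.2% higher. The median log2 fold change was -0.27 in the sterol branch and -0.29 in the fatty acid branch, against -0.0177 over all genes tested. The summed level of the sterol branch fell from 1432 to 1481 FPKM in untreated libraries to 1150 to 1225 FPKM in exposed ones, and that of the fatty acid branch from 1010 to 1086 FPKM to 866 to 902 FPKM. The fatty acid sum came mostly from SCD, with means of 654 FPKM in untreated and 530 FPKM in exposed libraries. Most changes were small. A differentially expressed gene (DEG) was one that was called with a log2 fold change beyond 0.58 in either direction. There were 4 such sterol genes, all lower, and 0 such fatty acid genes, against 3.73% of all genes that were DEGs with lower and 5.75% with higher expression. FADS2 lay just short of this limit at -0.57 and passed it with libraries scaled to the same FPKM sum. The difference between the branches was not tested. In bulk samples of 2 cell lines, fewer cells of a type and less RNA per cell cannot be told apart.

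**Figure D1:**
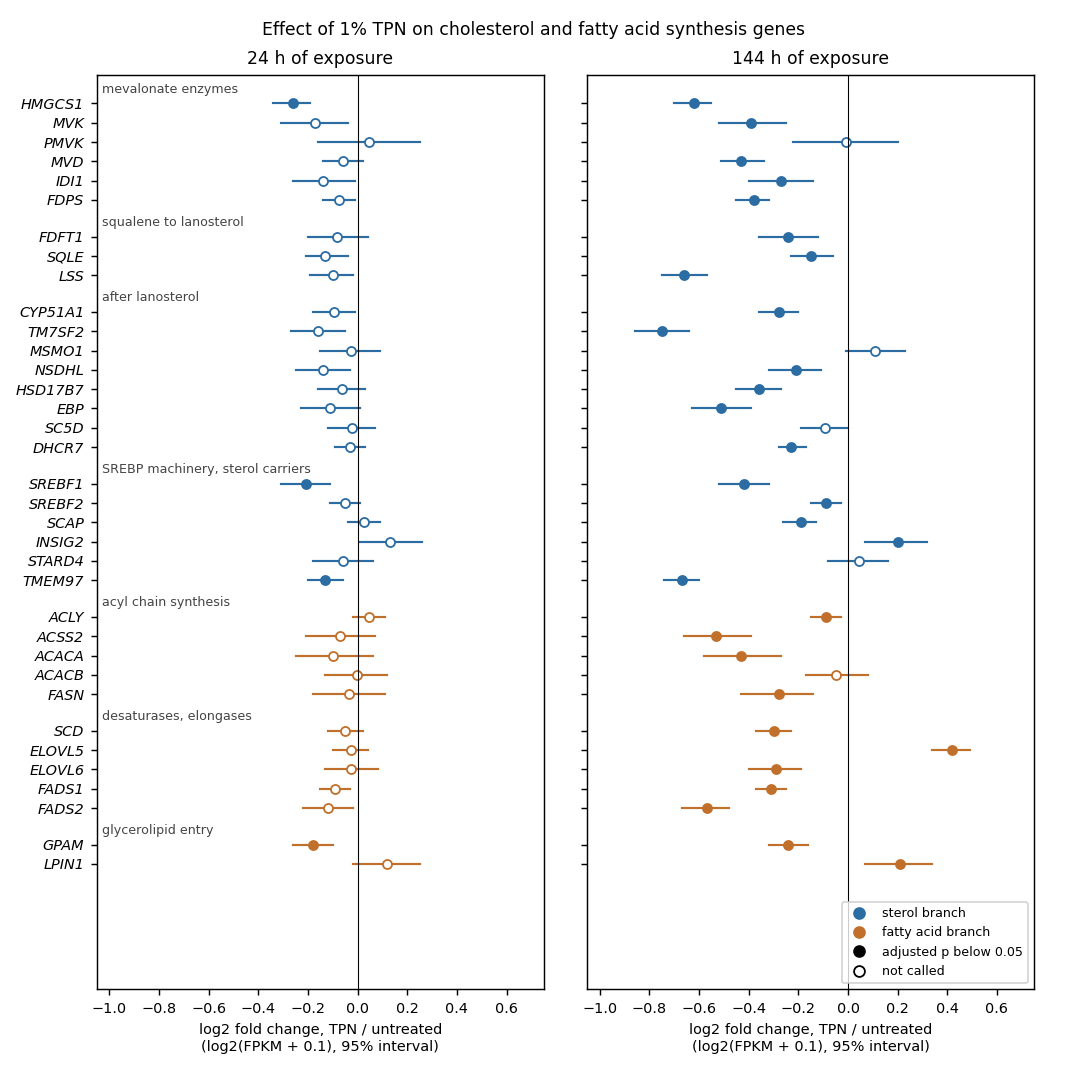
Log2 fold change of TPN over untreated for the 35 members tested, after 24 h (left) and 144 h (right), on the log2(FPKM + 0.1) scale with 95% intervals from limma, ordered by role. Blue points are the sterol branch, orange points the fatty acid branch, and filled points have an adjusted p below 0.05. At 24 h 4 points are filled, and at 144 h 30 are, 27 of them left of 0.

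Among the enzymes of the mevalonate pathway, which builds isoprenoid units from acetyl-CoA, 5 of 6 fell at 144 h. HMGCS1 makes HMG-CoA at the start of the pathway and lies on chromosome 5 at 43287321-43313477 (GRCh38.p13). Its level was 70.69, 67.25 and 65.86 FPKM in the untreated libraries and 45.61, 43.59 and 43.03 FPKM in the exposed ones. The groups did not overlap, and the exposed mean was 64.9% of the untreated mean (log2 fold change -0.62 ± 0.034 SE, limma adjusted p = 6.18e-09). MVD, which decarboxylates mevalonate diphosphate, went from 84.4 ± 2.60 to 62.8 ± 2.45 FPKM (mean ± SD, n = 3 here and below), a log2 fold change of -0.43. FDPS, which makes farnesyl diphosphate, went from 182.0 ± 2.19 to 139.6 ± 3.53 FPKM (log2 fold change -0.38). Mevalonate kinase MVK and the isomerase IDI1 fell by 0.39 and 0.27 on the log2 scale. The exception was PMVK, phosphomevalonate kinase, with 9.87 ± 1.28 FPKM in untreated and 9.76 ± 0.55 FPKM in exposed spheroids (log2 fold change -0.00986, 95% interval -0.22 to 0.20). PMVK was also the member with the widest relative spread within a group, in the untreated libraries at 144 h.

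The 3 enzymes that lead from farnesyl diphosphate to lanosterol all fell, to unequal extents. LSS, lanosterol synthase, closes the ring of the first sterol and was at 39.39, 40.03 and 37.80 FPKM without TPN and at 24.99, 23.75 and 25.18 FPKM with it. The exposed mean was 63.1% of the untreated mean, with no overlap (log2 fold change -0.66 ± 0.0409 SE, limma adjusted p = 1.9e-08). FDFT1, squalene synthase, went from 176.3 ± 4.19 to 149.4 ± 15.5 FPKM (log2 fold change -0.24), and its exposed libraries had a lowest value of 131.79 FPKM. SQLE, squalene epoxidase and a known control point of the pathway, changed least, from 77.8 ± 3.04 to 70.2 ± 2.0 FPKM (log2 fold change -0.15, limma adjusted p = 0.00599).

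Of the 8 enzymes that convert lanosterol to cholesterol, 6 fell and 2 did not pass the test. TM7SF2, a sterol C14 reductase on chromosome 11 at 65111872-65116230, showed the largest fall of all members. Its level was 30.64, 32.44 and 32.28 FPKM in untreated and 19.17, 17.27 and 20.20 FPKM in exposed libraries. The groups lay far apart, with an exposed mean of 59.4% of the untreated mean (log2 fold change -0.75 ± 0.0507 SE, limma adjusted p = 4.47e-08). EBP, the sterol isomerase, went from 104.4 ± 5.04 to 73.6 ± 7.0 FPKM (log2 fold change -0.51), and HSD17B7, a 3-ketosteroid reductase of this pathway, from 31.1 ± 1.52 to 24.2 ± 0.83 FPKM (log2 fold change -0.36). CYP51A1, the lanosterol demethylase, DHCR7, the last reductase of the pathway, and NSDHL, a sterol dehydrogenase, fell by 0.28, 0.23 and 0.21 on the log2 scale. MSMO1, the sterol C4 methyl oxidase that acts between CYP51A1 and NSDHL, stood out from its neighbours in the pathway. It was at 77.11, 70.29 and 66.21 FPKM in untreated and 77.14, 72.54 and 80.88 FPKM in exposed libraries. The groups overlapped, and the log2 fold change was 0.11 (95% interval -0.01 to 0.23, limma adjusted p = 0.117). Without untreated replicate 1 at 144 h the value was 0.17 with a limma adjusted p of 0.0207. SC5D, the C5 desaturase, was at 14.96 ± 0.56 and 14.01 ± 0.34 FPKM (log2 fold change -0.093, limma adjusted p = 0.0986). HSD17B7 and FDPS have pseudogene copies, between which the counting of fragments could have been split.

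The genes of the SREBP machinery and of sterol carriers moved in both directions. SREBF1, on chromosome 17 at 17811334-17837017, was at 13.64, 14.80 and 13.42 FPKM without TPN and at 10.60, 10.02 and 10.63 FPKM with it. All exposed libraries were lower, with a mean of 74.7% of the untreated one (log2 fold change -0.42 ± 0.0458 SE, limma adjusted p = 4.9e-06). SREBF2, on chromosome 22 at 41833105-41907308, changed much less, from 58.47, 60.06 and 61.10 FPKM to 56.64, 55.71 and 56.54 FPKM. The groups did not overlap here either, but the log2 fold change was -0.0886 ± 0.0277 SE (limma adjusted p = 0.0159), and the call was lost without untreated replicate 3 (adjusted p = 0.066) or TPN replicate 2 (adjusted p = 0.0512) at 144 h. An antisense gene, SREBF2-AS1, overlaps its start in GENCODE v44, and the sources used here do not state whether strand was used in counting. SCAP, the sterol-sensing escort of SREBP, went from 39.8 ± 1.11 to 34.8 ± 0.25 FPKM (log2 fold change -0.19).

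INSIG2, a retention protein that holds SCAP in the endoplasmic reticulum, was the 1 sterol branch gene that rose. Its level was 65.99, 64.13 and 64.81 FPKM in untreated and 72.92, 76.11 and 74.62 FPKM in exposed libraries at 144 h. Every exposed library exceeded every untreated one (log2 fold change 0.20 ± 0.0573 SE, limma adjusted p = 0.0103). INSIG1, its paralogue, was almost undetected and did not pass the filter of a mean of 0.5 FPKM. It was listed at 0.14, 0.22 and 0.16 FPKM in untreated and 0.21, 0.25 and 0.14 FPKM in exposed libraries at 24 h, and at 0, 0 and 0.02 FPKM and 0.05, 0.02 and 0.02 FPKM at 144 h, so no fold change is given. TMEM97, a membrane protein also known as the sigma-2 receptor that takes part in cholesterol trafficking, was among the genes that fell most. Its level was 59.55, 57.73 and 58.90 FPKM without TPN and 36.35, 38.15 and 36.18 FPKM with it. The groups were widely separated, with an exposed mean of 62.8% of the untreated one (log2 fold change -0.67 ± 0.0321 SE, limma adjusted p = 1.89e-09). STARD4, a cytosolic sterol carrier, was at 23.83, 24.49 and 24.47 FPKM against 25.70, 24.96 and 24.35 FPKM and was not called (log2 fold change 0.0429).

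**Figure D2:**
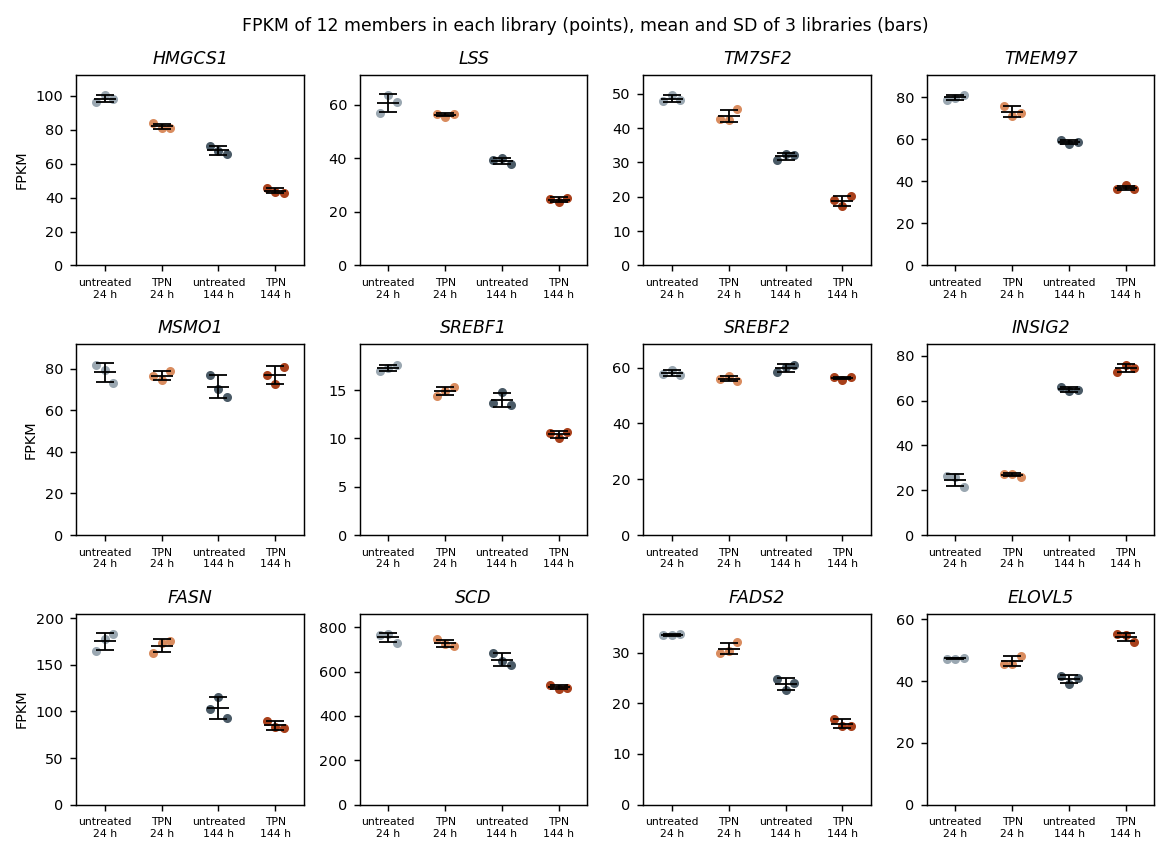
FPKM of 12 members in the 12 libraries. Points are libraries, horizontal bars the mean and vertical bars the SD of 3 libraries, and each vertical axis starts at 0. TM7SF2, HMGCS1, LSS and TMEM97 step down from the untreated 24 h group to the TPN 144 h group, whereas INSIG2 is higher in all 144 h libraries and ELOVL5 is highest in the exposed libraries at 144 h.

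In the fatty acid branch, 4 of the 5 genes that supply and build acyl chains fell at 144 h. ACSS2, which activates acetate to acetyl-CoA, was at 33.67, 32.82 and 32.85 FPKM in untreated and 23.35, 21.32 and 24.29 FPKM in exposed libraries. The exposed mean was 69.4% of the untreated mean, without overlap (log2 fold change -0.53 ± 0.0637 SE, limma adjusted p = 1.21e-05). ACLY, which makes acetyl-CoA from citrate, differed much less, with 70.7 ± 1.72 and 66.5 ± 1.54 FPKM (log2 fold change -0.0893, limma adjusted p = 0.0207). That call was lost when untreated replicate 1 or 2 or TPN replicate 2 or 3 at 144 h was left out (limma adjusted p = 0.0539 to 0.077), after quantile normalization (0.102) and with the groups of the comparison fitted alone (0.0507). ACACA, the cytosolic acetyl-CoA carboxylase, went from 12.3 ± 1.37 to 9.09 ± 0.50 FPKM (log2 fold change -0.43), whereas its mitochondrial counterpart ACACB was at 3.56 ± 0.035 and 3.44 ± 0.075 FPKM (log2 fold change -0.0482, limma adjusted p = 0.506). FASN, the fatty acid synthase, was at 102.50, 115.94 and 92.93 FPKM in untreated and 90.10, 82.88 and 82.05 FPKM in exposed libraries. All exposed libraries were below all untreated ones, by a narrow margin at the nearest pair (log2 fold change -0.28 ± 0.0667 SE, limma adjusted p = 0.00282).

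The desaturases and elongases, which introduce double bonds into acyl chains and lengthen them, were all called at 144 h, 4 lower and 1 higher. SCD, the stearoyl-CoA desaturase, had the highest level per length of all members and was at 684.44, 649.82 and 627.83 FPKM without TPN and 541.42, 521.61 and 527.86 FPKM with it. The groups did not overlap, and the exposed mean was 81.1% of the untreated one (log2 fold change -0.30 ± 0.034 SE, limma adjusted p = 6.2e-06). FADS2, the delta-6 desaturase at the entry to polyunsaturated fatty acids, was at 24.85, 22.62 and 24.06 FPKM against 16.96, 15.50 and 15.51 FPKM. This was the largest fall in the fatty acid branch, to 67.1% of the untreated mean (log2 fold change -0.57 ± 0.0452 SE, limma adjusted p = 2.04e-07). FADS1, the delta-5 desaturase next to it, went from 55.5 ± 1.53 to 44.7 ± 0.78 FPKM (log2 fold change -0.31). The 2 genes overlap on chromosome 11, at 61816203-61867957 for FADS2 and 61799627-61820899 for FADS1, and fragments from the shared stretch could have been assigned to either. ELOVL6, which elongates saturated chains, went from 8.06 ± 0.38 to 6.55 ± 0.14 FPKM (log2 fold change -0.29).

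ELOVL5, which elongates polyunsaturated chains, went against the rest of its group. On chromosome 6 at 53267404-53348973, it was at 41.71, 39.21 and 41.08 FPKM in untreated and 55.27, 54.90 and 52.84 FPKM in exposed libraries at 144 h. The exposed mean was 1.34 times the untreated mean, without overlap (log2 fold change 0.42 ± 0.034 SE, limma adjusted p = 2.82e-07). The genes of glycerolipid entry also split. GPAM, the mitochondrial glycerol-3-phosphate acyltransferase, went from 38.4 ± 0.32 to 32.6 ± 1.5 FPKM (log2 fold change -0.24, limma adjusted p = 0.000126). LPIN1, a phosphatidate phosphatase, was at 6.31, 6.62 and 6.50 FPKM in untreated and 7.95, 6.80 and 7.78 FPKM in exposed libraries, higher with TPN in each (log2 fold change 0.21 ± 0.0624 SE, limma adjusted p = 0.0127). Without TPN replicate 1 the limma adjusted p for LPIN1 was 0.0601.

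At 144 h all exposed libraries lay below all untreated ones for 29 of the 35 members tested, and above them for 3. Over all genes tested the shares were 30.2% and 27.2%. Markers and proliferation genes also differed between exposed and untreated libraries. Of the 10 hepatocyte markers, 8 were lower with TPN at 144 h, ALB and HNF4A among them. SERPINA1 and FGB were not called (log2 fold changes -0.0345 and 0.0573). The summed level of the 10 was 14760 to 15839 FPKM in untreated and 11579 to 12399 FPKM in exposed libraries. ALB had the largest part in this sum, with means of 6044 and 3863 FPKM. Of the 9 stellate cell markers tested, 6 were lower, with a median log2 fold change of -0.86 over the list. Their sums, 76.1 to 80.9 FPKM in untreated and 70.6 to 73.1 FPKM in exposed libraries, came mostly from ACTA2 and SPARC, which were not called (log2 fold changes -0.0763 and 0.0587). The fibrillar collagens COL1A1 and COL3A1 and the intermediate filament VIM were low at this time and fell to 39.0%, 25.2% and 44.3% of the untreated mean. All 10 proliferation genes were lower, with sums of 678 to 695 FPKM and 485 to 503 FPKM. Their part in the result was not tested.

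After 24 h of exposure few members had changed. In the sterol branch 3 of 23 genes fell, in the fatty acid branch 1 of 12, and no member rose, whereas 10.5% of all genes tested were called in this comparison, 5.46% lower. None of the members was a DEG, against 0.914% of all genes. The share of members called in either direction was 11.4%, near that of all genes, though all of these calls were lower. Median log2 fold changes were -0.0822 in the sterol and -0.0436 in the fatty acid branch, and -0.00445 over all genes tested. Of the 35 members tested, 30 had a fold change below 0.

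HMGCS1 showed the largest early change. It was at 96.37, 100.55 and 98.30 FPKM in untreated and 83.96, 80.87 and 81.21 FPKM in exposed libraries at 24 h. The groups did not overlap, and the exposed mean was 83.3% of the untreated one (log2 fold change -0.26 ± 0.034 SE, limma adjusted p = 0.000216). SREBF1 was at 16.95, 17.28 and 17.65 FPKM against 14.44, 14.96 and 15.33 FPKM, lower in every exposed library (log2 fold change -0.21 ± 0.0458 SE, limma adjusted p = 0.00875). GPAM was at 65.44, 64.84 and 67.98 FPKM against 56.69, 57.83 and 60.58 FPKM, again without overlap (log2 fold change -0.18 ± 0.0374 SE, limma adjusted p = 0.00722). TMEM97 was at 78.81, 79.87 and 81.11 FPKM against 75.89, 71.11 and 72.76 FPKM (log2 fold change -0.13 ± 0.0321 SE, limma adjusted p = 0.0225). The call for TMEM97 was lost when untreated replicate 2 or 3 or TPN replicate 2 or 3 at 24 h was left out (limma adjusted p = 0.0632 to 0.0958), after quantile normalization (0.0555) and without the intensity trend in limma (0.0528). SREBF2, with 58.0 ± 0.99 and 56.1 ± 0.88 FPKM, SQLE, with 100.2 ± 4.47 and 91.8 ± 2.31 FPKM, and FASN, with 175.3 ± 9.16 and 170.8 ± 6.61 FPKM, were not called at 24 h. With single libraries left out, LSS passed without untreated replicate 1 at 24 h (limma adjusted p = 0.0358), SQLE without untreated replicate 3 at 24 h (0.0305) or untreated replicate 1 at 144 h (0.0422), MVK without untreated replicate 2 at 144 h (0.031), and TM7SF2 without TPN replicate 2 or 3 at 144 h (0.0187 and 0.0359). At 24 h all exposed libraries lay below all untreated ones for 16 of the 35 members tested, and above them for 3. Over all genes tested the shares were 15.9% and 13.9%. Hepatocyte markers were already lower at 24 h in 6 of 10 cases, with sums of 13782 to 14146 FPKM in untreated and 12613 to 12711 FPKM in exposed libraries. Stellate cell markers were lower in 1 of 9 cases, with sums of 139.2 to 146.8 FPKM and 123.9 to 127.0 FPKM. Proliferation genes were lower in 6 of 10 cases, with sums of 1089 to 1102 FPKM and 975 to 985 FPKM, and the part of these in the result was not tested.

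**Figure D3:**
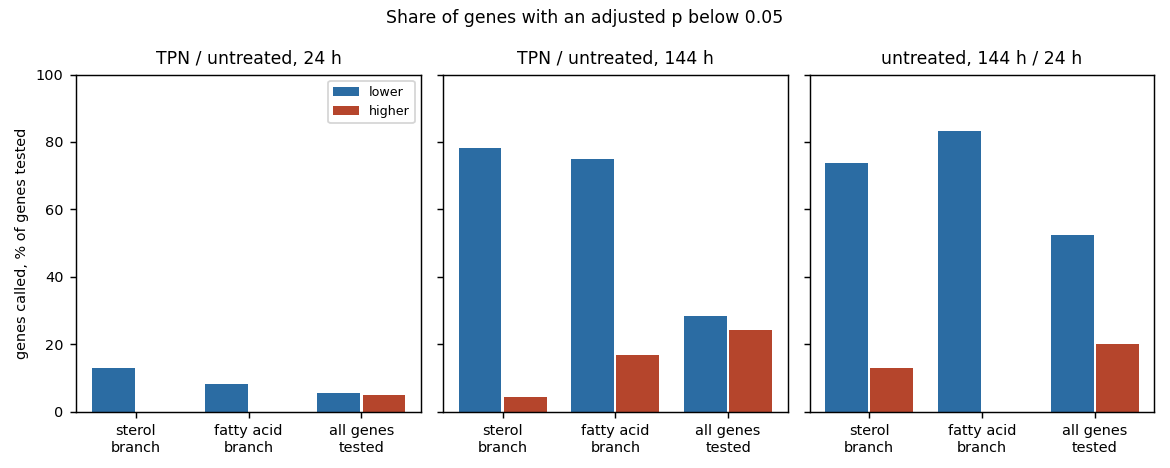
Percent of tested genes with a limma adjusted p below 0.05 that were lower (blue) or higher (red), for the 23 sterol and 12 fatty acid genes tested and for all 11713 genes, in the 3 comparisons named above the panels. At 144 h of TPN 18 of 23 sterol genes (78.3%) and 9 of 12 fatty acid genes were lower, against 28.3% of all genes, and at 24 h 3 of 23 sterol and 1 of 12 fatty acid genes were lower and none was higher, against 5.46% lower and 5.04% higher over all genes.

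For 20 members the response to TPN was not the same at the later as at the earlier time, by a test of the difference itself (144 h minus 24 h) in the same limma model. In 12 sterol and 7 fatty acid genes the effect was more negative at 144 h, and in ELOVL5 it was more positive, whereas 30.4% of all genes tested differed, 16.3% towards lower. The median difference was -0.20 in the sterol and -0.23 in the fatty acid branch, and -0.0197 over all genes tested. TM7SF2, which fell by 0.16 on the log2 scale at 24 h without being called, had the largest difference, -0.59 ± 0.0717 SE (limma adjusted p = 5.06e-05), and was the 1 member that differed by more than 0.58, against 1.66% of all genes in that direction. With 1 added to FPKM in place of 0.1, TM7SF2 no longer passed 0.58. LSS differed by -0.56 (limma adjusted p = 1.54e-05) and TMEM97 by -0.54 (limma adjusted p = 3.06e-06). ACSS2 and FADS2 differed by -0.46 and -0.45, and ELOVL5 by 0.45 (limma adjusted p = 2.01e-05). For GPAM, which had fallen at both times, the difference was -0.0584 (95% interval -0.17 to 0.06) and was not called, and neither was that for SQLE (-0.0209, 95% interval -0.14 to 0.10). Some of these calls depended on single libraries. That for SREBF1 was lost without untreated replicate 1 or 2 or TPN replicate 2 or 3 at 24 h, or replicate 2 of either group at 144 h (limma adjusted p = 0.0538 to 0.0694). That for ACACA was lost without untreated replicate 1 or 2 or TPN replicate 3 at 24 h, or untreated replicate 1 or 2 or TPN replicate 3 at 144 h (limma adjusted p = 0.0534 to 0.0647). That for ACLY was lost without untreated replicate 1 or TPN replicate 2 at 24 h, or untreated replicate 1 or TPN replicate 3 at 144 h (limma adjusted p = 0.0539 to 0.0632), after quantile normalization (0.0659) and without the intensity trend (0.0537). That for CYP51A1 was lost without untreated replicate 3 or TPN replicate 1 at 24 h or TPN replicate 2 at 144 h (limma adjusted p = 0.054 to 0.0572). Conversely, a difference was called for MVK without untreated replicate 2 at 144 h (limma adjusted p = 0.00757), for FASN without untreated replicate 3 or TPN replicate 1 at 144 h (0.0105 and 0.0436), for FDFT1 without TPN replicate 3 at 144 h (0.0384) and for INSIG2 without untreated replicate 3 at 24 h (0.0267).

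Time in culture also lowered these genes in spheroids that never received TPN. Between 24 h and 144 h without TPN, 17 of 23 sterol genes fell and 3 rose, and 10 of 12 fatty acid genes fell, but this comparison moved most of the transcriptome, with 72.6% of all genes called, 52.4% lower and 20.1% higher. The median of all genes tested was -0.18 on the log2 scale, and the branches had medians of -0.34 (sterol) and -0.41 (fatty acid). The split depended on scaling: of the genes called, 72.2% were lower as deposited, 51.1% after median ratio scaling and 56.6% after quantile normalization, where the median of all genes was -0.012 and -0.0494. Under either of these scalings 14 sterol genes were lower and 6 higher, with 7 and 8 fatty acid genes lower after median ratio scaling and quantile normalization, respectively. Of all 11713 genes tested, 4007 were lower and 3834 higher after median ratio scaling. After quantile normalization 4436 were lower and 3408 higher. Fold changes with time are therefore followed by their value relative to the median of all genes.

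**Figure D4:**
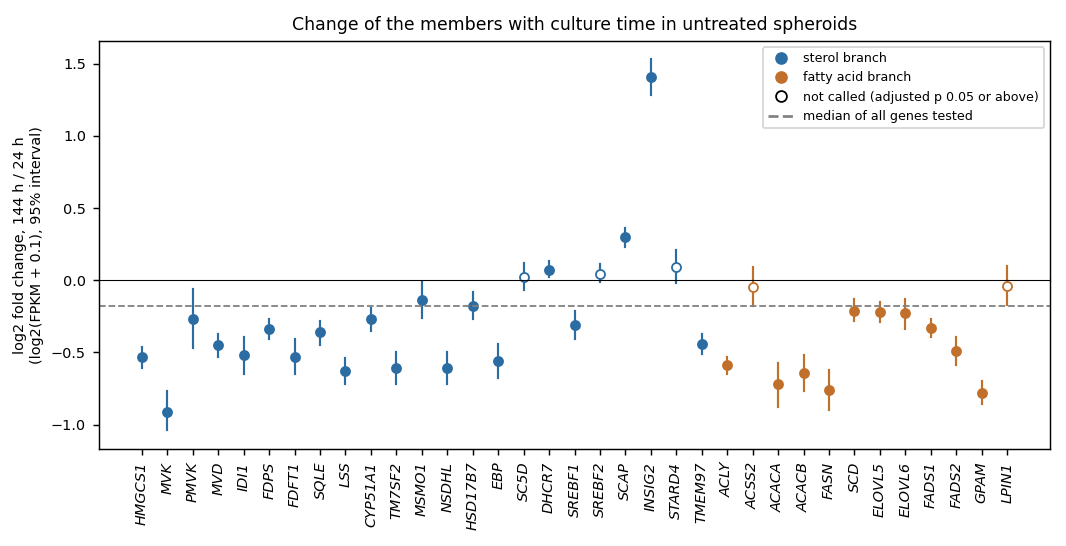
Log2 fold change of untreated spheroids at 144 h over 24 h for the 35 members tested, on the log2(FPKM + 0.1) scale with 95% intervals from limma. Blue is the sterol and orange the fatty acid branch, open points were not called, and the dashed line is the median of all genes tested (-0.18). INSIG2 lies at 1.41 and MVK at -0.91, with most enzymes below the dashed line.

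INSIG2 had by far the largest change with time. It was at 26.29, 25.73 and 21.59 FPKM at 24 h and at 65.99, 64.13 and 64.81 FPKM at 144 h in untreated spheroids. The mean was 2.65 times as high at 144 h (log2 fold change 1.41 ± 0.0573 SE, limma adjusted p = 1.29e-10), or 1.59 above the median of all genes. SCAP rose as well, from 32.4 ± 0.11 to 39.8 ± 1.11 FPKM (log2 fold change 0.30, 0.48 relative to the median). DHCR7 was called higher by 0.0728 (0.26 relative to the median), but this was lost without untreated replicate 1 or 3 at 24 h or untreated replicate 2 at 144 h (limma adjusted p = 0.0628 to 0.0894), and also with libraries scaled to the same FPKM sum (0.0844), without the intensity trend (0.0506) and with the groups of the comparison fitted alone (0.0528). STARD4 passed without untreated replicate 2 at 24 h (limma adjusted p = 0.0334). SREBF2, at 58.0 ± 0.99 and 59.9 ± 1.32 FPKM, was not called as deposited and was called higher under both scalings, as were SC5D and STARD4.

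Among the genes that fell with time, MVK went from 37.3 ± 2.11 to 20.0 ± 2.12 FPKM (log2 fold change -0.91, -0.72 relative to the median). GPAM went from 66.1 ± 1.67 to 38.4 ± 0.32 FPKM (log2 fold change -0.78, -0.60 relative to the median, limma adjusted p = 5.68e-10). FASN was at 165.23, 177.39 and 183.18 FPKM at 24 h and at 102.50, 115.94 and 92.93 FPKM at 144 h, with no overlap (log2 fold change -0.76, -0.58 relative to the median, limma adjusted p = 2.12e-07). ACACA, ACACB and ACLY fell by 0.72, 0.64 and 0.59 on the log2 scale, or by 0.54, 0.46 and 0.41 relative to the median. As deposited, 4 sterol genes (MVK, LSS, TM7SF2 and NSDHL) and 5 fatty acid genes (ACLY, ACACA, ACACB, FASN and GPAM) were DEGs with lower expression and INSIG2 was one with higher expression, against 12.2% lower and 6.80% higher over all genes. This count depended on scaling. After median ratio scaling 1 sterol gene (MVK) and 2 fatty acid genes (FASN and GPAM) were still lower DEGs, and after quantile normalization these and ACACA, while the lower DEGs over all genes went from 1434 to 657 and 783. INSIG2 was a higher DEG under both. The calls for HSD17B7, PMVK, ELOVL5 and ELOVL6 were lost under both scalings and that for SCD after median ratio scaling, and MSMO1, ACSS2 and LPIN1 changed sign under both. The calls for PMVK and MSMO1 were also lost when 4 and 7 of the 12 libraries, respectively, were left out 1 at a time, that for MSMO1 further without the filter on low values, without the intensity trend and with the groups fitted alone (limma adjusted p = 0.063 to 0.0795), and ACSS2 passed without untreated replicate 3 at 24 h (limma adjusted p = 0.0418). All untreated libraries at 144 h lay below all those at 24 h for 25 of the 35 members tested, and above them for 3. Over all genes tested the shares were 53.7% and 21.2%. Stellate cell markers fell with time in 8 of 9 cases, from 139.2 to 146.8 FPKM to 76.1 to 80.9 FPKM in sum, and all 10 proliferation genes fell, from 1089 to 1102 FPKM to 678 to 695 FPKM. Of the hepatocyte markers 4 fell and 4 rose, and the part of these groups in the result was not tested.

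For some members the values for time and for TPN lay far apart, though the comparisons share the untreated libraries at 144 h and the difference between them was not tested. ACLY changed by -0.59 with time (-0.41 relative to the median) and by -0.0893 with TPN at 144 h, and ACSS2 by -0.0443 with time (0.14 relative to the median) and -0.53 with TPN. INSIG2 changed by 1.41 with time (1.59 relative to the median) and by 0.20 with TPN. ACACB changed by -0.64 with time (-0.46 relative to the median) and by -0.0482 with TPN. GPAM had -0.78 with time (-0.60 relative to the median) and -0.24 with TPN. ELOVL5 was -0.22 with time (-0.04 relative to the median) and 0.42 with TPN. For TMEM97 the values lay closer, at -0.44 with time (-0.26 relative to the median) and -0.67 with TPN. At 144 h with TPN, TM7SF2 was at 18.9 ± 1.49 FPKM, compared with 48.6 ± 0.92 FPKM in untreated spheroids at 24 h.

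Genes around the pathway that are not members were read from 3 further lists. Over all genes tested, 28.3% were called lower and 24.2% higher with TPN at 144 h, and 5.46% and 5.04% at 24 h. Of 12 genes for SREBP processing and sterol sensing, 2 were lower and 4 higher with TPN at 144 h, and 0 were called at 24 h. The largest changes were those of PAQR3, a Golgi protein that tethers SCAP, from 5.39 ± 0.66 to 8.36 ± 0.57 FPKM (log2 fold change 0.63), MYLIP, a ubiquitin ligase of lipoprotein receptors, from 1.16 ± 0.13 to 0.84 ± 0.097 FPKM (-0.42), and MBTPS2, the site-2 protease that releases SREBP, from 8.29 ± 0.34 to 6.74 ± 0.099 FPKM (-0.30). Of 16 tested genes for isoprenoids and sterol side branches, 7 were lower and 3 higher at 144 h, and 1 lower and 1 higher at 24 h. SOAT2, which esterifies cholesterol in hepatocytes, went from 39.3 ± 0.56 to 19.1 ± 1.97 FPKM (log2 fold change -1.04, limma adjusted p = 4.82e-09). ACAT2, the acetoacetyl-CoA thiolase just upstream of HMGCS1, went from 179.9 ± 4.87 to 101.5 ± 4.25 FPKM (log2 fold change -0.83, limma adjusted p = 3.88e-10), and FNTB, a farnesyltransferase subunit, from between 10.02 and 13.62 FPKM to between 7.76 and 8.96 FPKM (-0.48). The fold changes of SOAT2 and ACAT2 were larger than that of any member, a difference that was not tested.

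Of 18 tested genes for other lipogenesis steps, 8 were lower and 5 higher with TPN at 144 h, and 2 lower and 1 higher at 24 h. FADS3, a relative of FADS1 and FADS2, rose from 6.97 ± 1.06 to 14.96 ± 0.65 FPKM (log2 fold change 1.10, limma adjusted p = 4.84e-07), opposite in direction to both. DGAT2, which makes triglycerides from diacylglycerol, went from 17.1 ± 0.29 to 11.2 ± 0.70 FPKM (log2 fold change -0.60). AGPAT2, an acyltransferase of the same route, rose from 44.2 ± 1.98 to 60.2 ± 3.11 FPKM (log2 fold change 0.44). The medians of the lists are not compared here. Of all genes tested, 52.5% were called at 144 h, 28.3% lower and 24.2% higher, and 10.5% at 24 h.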

How the data were processed

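Total RNA of pooled C3A and LX-2 spheroids was sequenced on a DNBSEQ platform from 4 groups of 3 libraries, which the study describes as independent experiments. According to the methods and the labels, the authors filtered reads, aligned them with HISAT2 2.0.4 to GRCh38.p13 and Bowtie2 2.2.5 to transcripts, and calculated FPKM per gene with RSEM. These FPKM values were used as deposited, and 20 lines that were no gene records were skipped. The authors' own tests needed read counts, which were not used here.

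Genes with a mean of at least 0.5 FPKM over the 12 libraries (11713 of 16705) entered 1 linear model of the 4 groups on the log2(FPKM + 0.1) scale, fitted by limma 3.58.1 (R 4.3.3) with an intensity trend and Benjamini-Hochberg adjustment over all genes tested. The added 0.1 understates changes of low genes. Contrasts were TPN against untreated at each time, their difference, and untreated 144 h against 24 h. A gene was called at an adjusted p below 0.05. The members and the lists of other genes were chosen with earlier results of these data known. All members are described, and of each related list the 3 genes called at 144 h with the largest change are named. Promoters and motifs were read with Python 3.11.15 from RefSeq windows. Alternatives changed the pseudocount, filter, scaling, trend, libraries and block. Some genes of these pathways are not reported here.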

Additional observations from a re-analysis of the deposited data

Results flagged for a closer look

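TM7SF2 was the 1 member whose TPN effect differed between the times by more than 0.58 on the log2 scale. The effect at 144 h minus that at 24 h was -0.59 (limma adjusted p = 5.06e-05). TM7SF2 was at 48.6 ± 0.92 FPKM in untreated and 43.5 ± 1.72 FPKM in exposed spheroids at 24 h, and at 31.8 ± 1.00 and 18.9 ± 1.49 FPKM at 144 h (mean ± SD, n = 3). With each library left out in turn the difference ranged from -0.64 to -0.53.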

How the results depend on the processing

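Of the values that 22 alternatives gave for 140 member results, 2924 kept direction and side of the threshold, 65 lost and 28 gained a call, and 24 changed sign. At 24 h of TPN the 3 sterol calls became 5 with libraries scaled to the same FPKM sum and 6 with the groups of the contrast alone. They became 2 without the intensity trend, 4 with a filter of at least 5 FPKM, and 2 to 4 with single libraries left out. Without TPN replicate 2 at 144 h, the sterol median at 144 h went from -0.27 to -0.227. Differences between the times called in the sterol branch then went from 12 to 10. At 144 h of TPN the 9 lower fatty acid calls became 8 after quantile normalization and with the groups of the contrast alone, and the 4 lower DEGs of the sterol branch were the same genes under the 10 settings that kept all libraries. The 0 fatty acid DEGs became 1, FADS2, with libraries scaled to the same FPKM sum. With single libraries left out, FADS2 ranged from -0.617 to -0.543, on both sides of the limit. With the replicate number as a block, the 1 fatty acid call at 24 h became 2, and no other call changed. Once group means were removed, same-numbered libraries of different groups correlated by -0.083 to 0.151. Libraries with different numbers were not compared, so whether the numbers pair the libraries was not tested.

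After median ratio scaling the sign changed for ACACB with TPN at 24 h (0.000229) and, with culture time, for MSMO1 (0.037), ACSS2 (0.129) and LPIN1 (0.135). After quantile normalization it changed for PMVK with TPN at 144 h (9.09e-05), SQLE in the difference between times (0.000801) and, with culture time, MSMO1 (0.0446), ACSS2 (0.132) and LPIN1 (0.0855). Both scalings also moved the median of all genes with culture time, and the cause of the other sign changes was not tested.

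With 1 library left out at a time, values crossed 0 for PMVK (-0.0307 to 0.119), MSMO1 (-0.0759 to 0.0064), SC5D (-0.0502 to 0.0135) and ACACB (-0.0284 to 0.0341) with TPN at 24 h. They also did so for PMVK with TPN at 144 h (-0.0759 to 0.0925), for PMVK (-0.129 to 0.0448) and SQLE (-0.0522 to 0.0122) in the difference between times, and for SC5D with culture time (-0.00725 to 0.0425). None of these was called as deposited. INSIG1 was below the filter and too low for a reliable comparison. Without the filter on low values it was a lower DEG with culture time. Its untreated libraries were at 0.14, 0.22 and 0.16 FPKM at 24 h and 0, 0 and 0.02 FPKM at 144 h. Why its level was so low was not tested.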
